A study of Rattus norvegicus with 6 samples.

Results

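The genes described are 10 members of the Notch pathway, chosen by gene symbol: the receptors Notch1, Notch2 and Notch3, the ligands Jag1, Jag2 and Dll1, and the target genes Hes1, Hey1, Heyl and Nrarp. All 10 were found among the 40456 genes of the deposited count table. Transcripts were counted after poly-A selection in 6 sequencing libraries of H9c2 (2-1) cells, a rat cardiomyoblast line whose genotype the labels give as WT. Before harvest all cells were kept for 5 days in medium with 1% serum and 1 µM retinoic acid, and for the last 24 h they carried 25 nM of a locked nucleic acid (LNA) gapmer, an antisense oligonucleotide that directs RNase H to the RNA it pairs with. The 3 control libraries came from cells with a negative control LNA, and the 3 knockdown libraries from cells with an LNA against the long non-coding RNA Tug1. The design asks how Notch genes stand when Tug1 is lowered. A single oligonucleotide sequence was used in each group, so a lower Tug1 level and any other action of that oligonucleotide cannot be told apart. The labels do not say whether the 3 libraries of a group came from separate cultures, so the p-values measure the spread between these libraries, which may be technical. The sequences of the oligonucleotides are shown because they are the only difference between the groups that the labels name.
Tug1 LNA: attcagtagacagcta
negative control LNA: gctcccttcaatccaa

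Notch receptors sit in the plasma membrane and are activated by the membrane-bound ligands of neighbouring cells, the Jagged and Delta-like proteins. Ligand binding exposes the receptor to an ADAM protease and then to gamma-secretase, which release its intracellular domain. That domain enters the nucleus, joins the DNA-binding protein RBPJ and a Mastermind coactivator, and switches on target genes, among them the HES and HEY repressors and Nrarp, an ankyrin repeat protein that limits the signal. In muscle precursors Notch signalling is known to hold cells in an undifferentiated state.

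Promoter sequences are shown for Hes1, Nrarp, Heyl and Hey2, target genes whose transcripts were compared. Dll1 was added as a ligand gene that holds an RBPJ motif, as Hes1 and Hey2 do. The sequences come from RefSeq on the rat build GRCr8, which had an entry for 9 of the 10 members. Hey1 had no entry. Each run holds the 250 bases before the annotated start, 5′ to 3′ on the gene's strand, and capitals mark every match, on either strand, to the motifs searched.
Hes1 (chr11:84213046-84213295, minus strand): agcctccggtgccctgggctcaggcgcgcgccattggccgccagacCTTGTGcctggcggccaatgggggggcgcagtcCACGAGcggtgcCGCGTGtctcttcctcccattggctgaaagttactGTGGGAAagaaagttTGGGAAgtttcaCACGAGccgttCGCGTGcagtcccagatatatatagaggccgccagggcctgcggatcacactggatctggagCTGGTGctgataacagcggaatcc
Nrarp (chr3:28390495-28390744, plus strand): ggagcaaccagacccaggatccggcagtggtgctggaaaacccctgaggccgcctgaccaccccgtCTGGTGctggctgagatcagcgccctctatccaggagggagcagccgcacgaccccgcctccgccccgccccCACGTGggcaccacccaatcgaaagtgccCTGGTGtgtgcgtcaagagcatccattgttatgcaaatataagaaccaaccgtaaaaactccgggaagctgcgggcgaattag
Heyl (chr5:140793021-140793270, plus strand): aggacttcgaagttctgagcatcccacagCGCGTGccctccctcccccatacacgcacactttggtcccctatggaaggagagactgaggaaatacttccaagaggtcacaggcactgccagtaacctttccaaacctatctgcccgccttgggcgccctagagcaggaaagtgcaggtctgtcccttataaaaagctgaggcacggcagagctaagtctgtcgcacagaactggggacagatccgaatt
Hey2 (chr1:28640850-28641099, plus strand): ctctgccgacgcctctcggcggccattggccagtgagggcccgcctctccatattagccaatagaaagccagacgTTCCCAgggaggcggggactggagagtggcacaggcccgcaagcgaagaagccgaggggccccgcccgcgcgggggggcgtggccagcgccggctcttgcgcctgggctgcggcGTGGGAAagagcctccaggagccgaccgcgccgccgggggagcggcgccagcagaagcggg
Dll1 (chr1:64993275-64993524, minus strand): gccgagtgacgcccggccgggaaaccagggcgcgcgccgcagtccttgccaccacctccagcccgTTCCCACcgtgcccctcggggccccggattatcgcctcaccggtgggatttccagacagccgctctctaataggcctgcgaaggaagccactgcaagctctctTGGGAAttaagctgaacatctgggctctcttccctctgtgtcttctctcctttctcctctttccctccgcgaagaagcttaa

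The motifs were GTGGGAA and its shorter part TGGGAA for RBPJ, and CACGTG (E box), CACGCG (a related box called class C) and CACNAG (N box) for HES and HEY proteins. The search covered the 250 bases before and the 50 bases after each start, on both strands, and every GTGGGAA is also a TGGGAA. Hes1 held a GTGGGAA whose first base lay 124 bases before the start and, further on, a TGGGAA 109 bases before it. It also held 2 class C boxes and 4 N boxes. HES1 is known to repress its own gene through N boxes, but whether these matches are the sites it uses was not tested. Nrarp held no RBPJ match in this window but an E box 112 bases before the start and 2 N boxes, and Heyl held a single class C box. Hey2, a HEY relative outside the 10 members, held a GTGGGAA 61 bases before the start. It also held a TTCCCA, the reverse complement of TGGGAA, 175 bases before the start. Dll1 held a TTCCCAC, the reverse complement of GTGGGAA, 185 bases before its start and a TGGGAA 82 bases before it. Hes7, a HES gene outside the members that is not shown, had 2 promoter entries. Entry 1 held a GTGGGAA 23 bases before the start and entry 2 a TTCCCAC 171 bases before it. Hes5, a further HES gene with too few counts to be tested, held a TTCCCAC 242 bases and a GTGGGAA 99 bases before its start. Notch3, Notch4 and Dner held matches to the shorter TGGGAA only, on either strand. Among 33469 promoter entries of the same length, 6.29% held GTGGGAA, 25.7% TGGGAA, 6.42% CACGTG, 8.5% CACGCG and 43.1% CACNAG. A match is only a match of letters, and no binding was measured here.

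**Figure D1:**
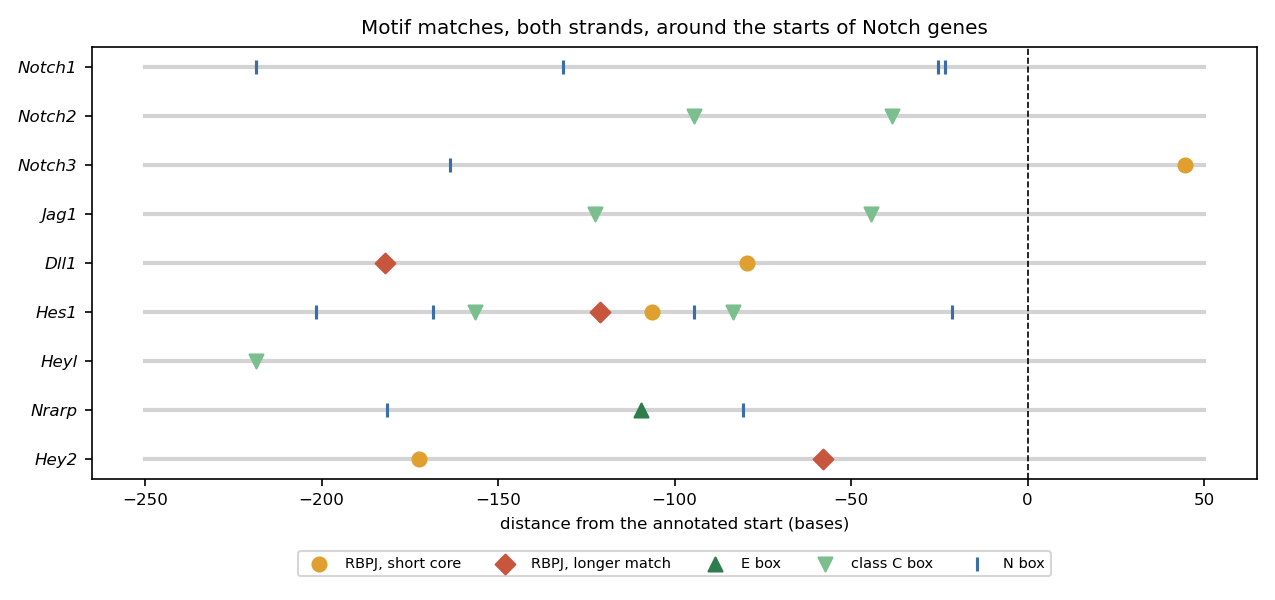
Matches to the RBPJ, E box, class C box and N box motifs around the annotated starts of 8 member genes with a RefSeq entry and of Hey2, by distance from the start in bases; each grey line is the 300-base window and each symbol the middle of a match on either strand. Hes1 carries both RBPJ matches and boxes for HES proteins, and the 2 RBPJ matches of Dll1 lie further apart than those of Hes1.

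The libraries were close in depth, at 12978548 to 13544337 counts. By library total alone, 1 CPM, the unit of counts scaled to library size, stood for 12.98 to 13.54 counts. Levels below are CPM on edgeR's TMM scale, which multiplies each total by a factor, here 0.979 to 1.022. Tug1 had 713, 672 and 718 counts in controls 1 to 3 and 164, 152 and 165 after knockdown, or 21.96% of the control level, which follows the labels. Although the labels call the cells cardiomyocytes, 6 of 9 cardiac markers (Tnni3, Myh6, Myh7, Nkx2-5, Nppa and Ryr2) averaged 3 counts or fewer per library. The other three were present, with Tnnt2 and Actc1 higher after knockdown and Gata4 not called, and the list summed to 358 to 390 CPM in controls and 417 to 469 CPM after knockdown. Skeletal muscle markers such as Myog, Myh3 and Myod1 were present. The summed level of the 8 on that list was 602 to 618 CPM in controls and 925 to 968 CPM after knockdown. Of the 7 tested, 6 were higher, Myog and Myh3 among them, and 1, Myod1, was lower, from a mean of 59.7 to 47.8 CPM. The summed level of 7 endothelial markers was 3.10 to 4.70 CPM in controls and 3.92 to 4.49 CPM after knockdown, and Pecam1, Cdh5, Kdr and Tie1 averaged 3 counts or fewer. Smooth muscle markers summed to 968 to 1063 CPM in controls and 1131 to 1289 CPM after knockdown, with 4 of 6 higher and none lower. Macrophage markers summed to 77.8 to 81.4 and 49.7 to 50.1 CPM, with Cd14 lower, Cd68 higher, and Ptprc and Adgre1 at 0 counts in every library. Fibroblast markers summed to 37180 to 38869 and 32267 to 34930 CPM, sums that Col1a1 and Col1a2 dominate, with Dcn higher and Col1a1 and Thy1 lower. The part of these marker changes in the Notch results was not tested. In bulk RNA, fewer cells of a type and less RNA per cell cannot be told apart.

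Of the 10 members, 9 had enough counts to be tested, and a gene is called changed at an adjusted p under 0.05 by the quasi-likelihood test of edgeR, with Benjamini-Hochberg adjustment over all 14216 tested genes. Across those genes 61.7% were called, 30.8% higher and 30.9% lower after knockdown, so a call by itself was common in these data. Of the members, 7 were lower (Notch1, Notch3, Jag1, Hes1, Hey1, Heyl and Nrarp), 1 was higher (Notch2) and 1 did not pass (Dll1). Heyl passed the count filter through its control libraries only, so for that gene being tested and being lower are not independent. Jag2 was not tested. The median log2 change (the fold change, knockdown over control, on the log2 scale) of the 9 tested members was -0.75, against 0.00 over all tested genes. The members were chosen with earlier results of these data known, and Heyl is among the 9. These counts and the median therefore describe the members and are not a test of them. A fall of at least 1 on the log2 scale together with a call was found for 5.21% of all tested genes. Hes1, Hey1, Heyl and Nrarp, the 4 target genes, all lay past it in the reported fit. Hey1 and Nrarp also did so under every alternative. Hes1 was at -0.90 with an offset for gene length, explained below, and Heyl was at -0.73 without knockdown replicate 1.

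**Figure D2:**
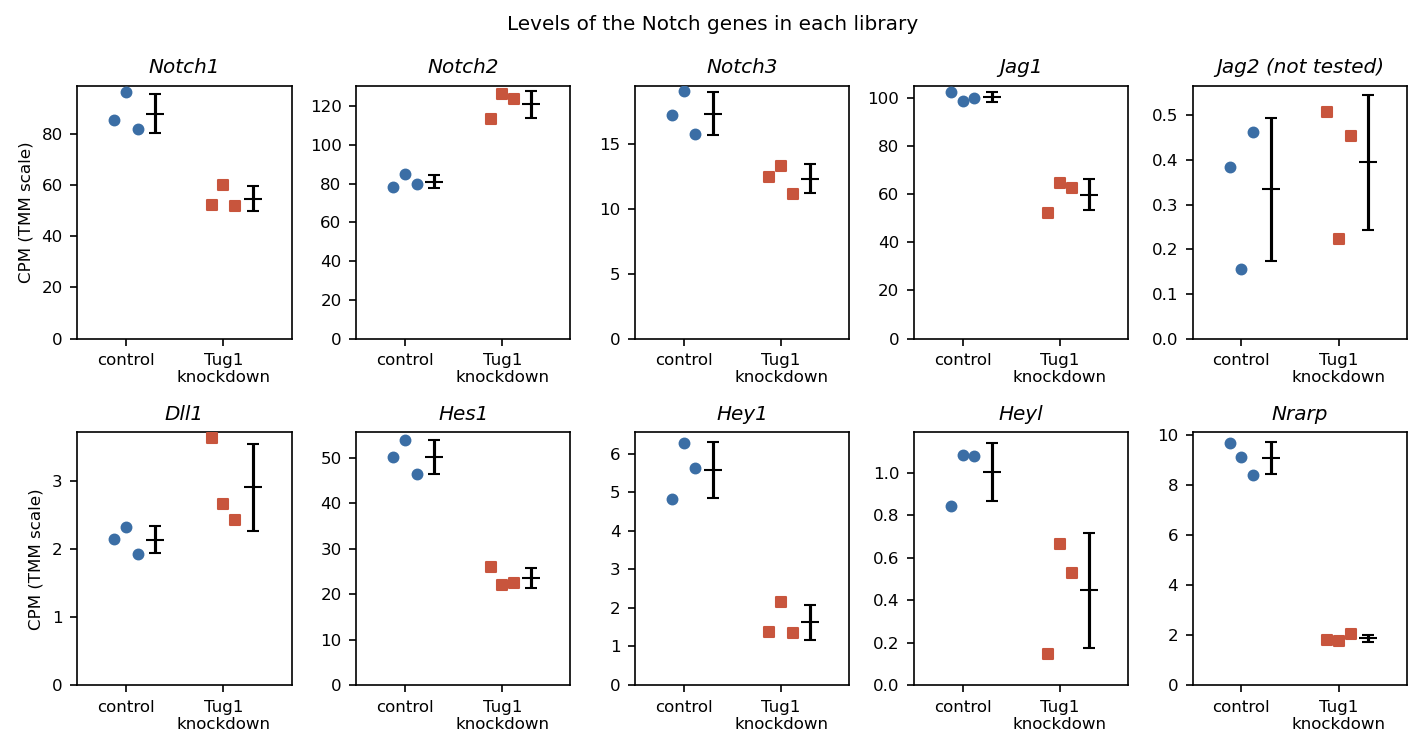
Level of each member gene in every library, in CPM on the TMM scale with each axis starting at 0; circles are the 3 control libraries, squares the 3 knockdown libraries, and bars the mean ± SD. The groups are apart for every gene but Jag2, as they are for 65.6% of all tested genes. Notch2 and Dll1 are the genes whose knockdown libraries lie above the controls, and Dll1 was not called.

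Notch1, a receptor that muscle precursors are known to use, was lower after knockdown. It was at 85.7, 96.6 and 81.9 CPM in controls 1 to 3 and at 52.2, 60.3 and 52.0 CPM in knockdown libraries 1 to 3. No knockdown library reached the lowest control, and groups were apart, in either direction, for 65.6% of all tested genes. The means were 88.1 ± 7.64 and 54.8 ± 4.72 CPM (SD, n = 3), or 62.3% of the control level, with a log2 change of -0.68 (SE 0.0688, edgeR adjusted p 1.14e-08).

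Notch2, a receptor of the same domain plan, was higher. Its control libraries were at 78.5, 84.9 and 79.8 CPM and its knockdown libraries at 113, 126 and 124 CPM, with no overlap. The means were 81.1 ± 3.37 and 121 ± 6.89 CPM (SD, n = 3), and the log2 change was 0.58 (SE 0.0564, edgeR adjusted p 6.78e-09). An offset for gene length, which removes a trend of each library's deviations on genomic span, lowered this value to 0.33 (edgeR adjusted p 1.96e-05).

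Notch3, the receptor known for its role in vascular smooth muscle, was lower by a smaller step. It was at 17.2, 19.0 and 15.7 CPM in controls and at 12.5, 13.3 and 11.1 CPM after knockdown, again without overlap. The log2 change was -0.49 (SE 0.107, edgeR adjusted p 0.000353).

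Notch2 thus moved against Notch1 and Notch3, and the ratio of their counts within a library can be read without any scaling between libraries. The log2 ratio of Notch2 to Notch1 counts was -0.13, -0.19 and -0.04 in controls 1 to 3 and 1.12, 1.07 and 1.25 in knockdown libraries 1 to 3. Notch2 counts were below Notch1 counts in every control library and above them in every knockdown library. The means were -0.12 ± 0.0749 and 1.15 ± 0.0960 (SD, n = 3), a difference of 1.26. The log2 ratio of Notch2 to Notch3 counts was 2.23 ± 0.0988 in controls and 3.30 ± 0.157 after knockdown (SD, n = 3), a difference of 1.07. For both ratios the exact permutation test (two-sided) gave p = 0.1, the smallest value that 3 against 3 libraries allow, and an adjusted p of 0.133 over 4 ratios, so a p under 0.05 was out of reach. The 4 ratios were chosen after the values had been seen. Transcript lengths were not used here, so a ratio says how the genes moved against each other and not which receptor was more abundant.

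Among the ligands, Jag1 was lower and the Delta-like ligand Dll1 was not called. Jag1 was at 102, 98.5 and 99.95 CPM in controls and at 52.3, 64.4 and 62.5 CPM after knockdown. The 3 control libraries lay within a few CPM of each other and far above the knockdown libraries. The means were 100.2 ± 1.94 and 59.7 ± 6.53 CPM (SD, n = 3), with a log2 change of -0.75 (SE 0.0654, edgeR adjusted p 1.17e-09).

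Dll1 had 28, 30 and 25 counts in controls and 50, 36 and 32 counts after knockdown, or 2.13 ± 0.198 and 2.90 ± 0.638 CPM (SD, n = 3). The groups did not overlap, but knockdown replicate 1 lay well above the other two, and the log2 change of 0.45 (95% interval -0.05 to 0.94, edgeR adjusted p 0.111) did not pass. It was 0.25 without knockdown replicate 1 (edgeR adjusted p 0.441) and passed with the length offset (0.55, 0.0467). In the RefSeq gene table Dll1 overlaps Fam120b, which was higher, at 34.8 ± 1.09 against 54.0 ± 1.82 CPM (SD, n = 3), a log2 change of 0.63 (edgeR adjusted p 1.28e-08). Use of strand in counting is not given in the sources used here, so reads of these neighbours could not be told apart with certainty.

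Jag2 had 5, 2 and 6 counts in controls and 7, 3 and 6 counts after knockdown. The libraries overlapped, and a difference was not detectable at this depth. Without a count filter its log2 change was 0.22 (SE 0.652, edgeR adjusted p 0.823).

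Nrarp, Hey1 and Hes1 had lower log2 changes than any receptor or ligand among the members, in the reported fit and under every alternative. Nrarp, which RBPJ complexes induce and whose protein in turn destabilises them, was lowest relative to control. It had 126, 118 and 109 counts in controls and 25, 24 and 27 counts after knockdown, or 9.66, 9.13 and 8.41 CPM against 1.81, 1.78 and 2.04 CPM. The knockdown libraries were nearly level with each other, at 20.7% of the control mean. The means were 9.07 ± 0.632 and 1.88 ± 0.143 CPM (SD, n = 3), and the log2 change was -2.27 (SE 0.175, edgeR adjusted p 1.44e-10).

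Hes1, a basic helix-loop-helix repressor whose promoter is shown above with RBPJ matches, was lower after knockdown. It was at 50.2, 53.9 and 46.4 CPM in controls and at 26.0, 21.97 and 22.4 CPM after knockdown. The lowest control library was well above the highest knockdown library. The means were 50.2 ± 3.72 and 23.5 ± 2.22 CPM (SD, n = 3), or 46.8% of control, with a log2 change of -1.09 (SE 0.0794, edgeR adjusted p 5.17e-11).

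Hey1, a HES-related repressor active in heart and vessel development, was at 4.83, 6.27 and 5.63 CPM in controls and at 1.38, 2.15 and 1.36 CPM after knockdown. These levels rest on 63 to 81 counts per control library and on 18 to 29 counts per knockdown library. The log2 change was -1.77 (SE 0.221, edgeR adjusted p 3.24e-07), and the groups did not overlap.

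Heyl, the third HEY gene, had few counts throughout, with 11, 14 and 14 in controls and 2, 9 and 7 after knockdown. Each knockdown library lay below each control library, and knockdown replicate 1 was under the limit of 3 counts taken as not detected. That limit corresponds to 0.221 to 0.231 CPM by library total, before TMM scaling, and covers counting error only. In the gene table Heyl overlaps the non-coding RNA gene LOC108351027, which had 12, 4 and 6 counts in controls and 8, 7 and 6 after knockdown, and reads of these genes could not be told apart with certainty either. The log2 change of Heyl was -1.16 (SE 0.437, edgeR adjusted p 0.0254). It was no longer called without knockdown replicate 1 (-0.73, edgeR adjusted p 0.169), without control replicate 2 (0.0771), without control replicate 3 (0.0763) or in DESeq2's Wald test (0.0912).

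The target genes were set against each other in the same way. The log2 ratio of Nrarp to Hes1 counts was -2.38, -2.56 and -2.47 in controls and -3.84, -3.63 and -3.46 after knockdown, a difference of -1.18 with no overlap (exact permutation test, two-sided, p = 0.1). The ratio of Hey1 to Hes1 counts was -3.38, -3.10 and -3.04 in controls and -4.24, -3.36 and -4.04 after knockdown. Here knockdown replicate 2 lay within the range of the controls, and the difference of -0.71 gave an exact permutation p of 0.2 (adjusted p 0.2).

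**Figure D3:**
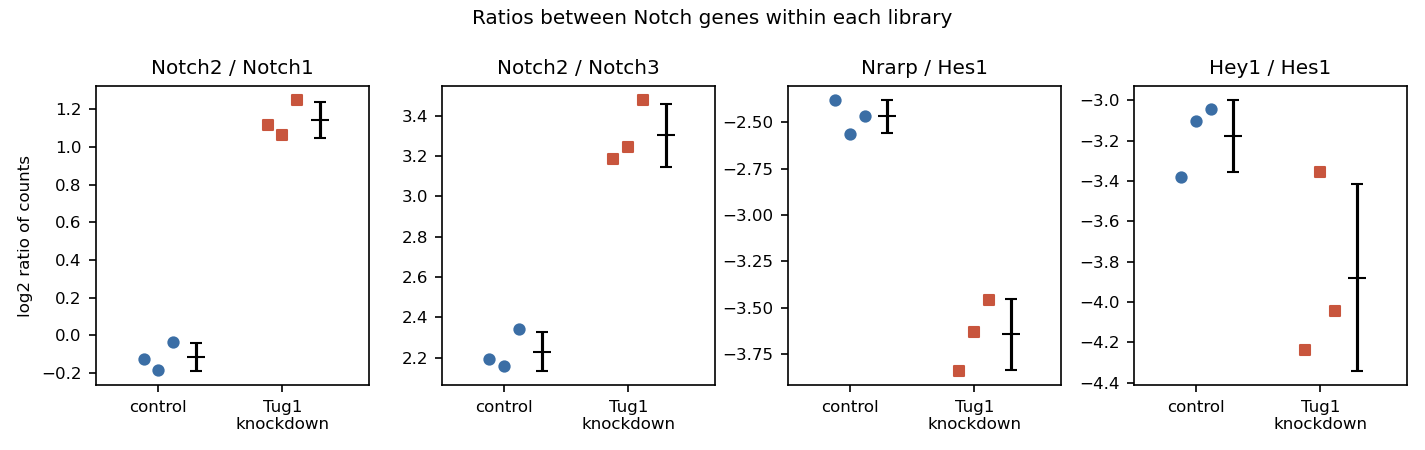
Log2 ratio of the counts of 2 Notch genes within each library; circles are control libraries, squares knockdown libraries, and bars the mean ± SD, and each axis has its own range that does not start at 0. The ratios of Notch2 to Notch1 and to Notch3 are above all controls in every knockdown library, that of Nrarp to Hes1 is below all controls, and the groups overlap for Hey1 over Hes1.

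The wider Notch family was read from a list of 13 further receptors, ligands and HES or HEY genes, of which 6 had enough counts to be tested. Of these, 4 were lower and 2 higher, against 61.7% of all tested genes called in either direction. Hes7, a HES repressor known from the segmentation clock, went from 4.83 ± 0.978 to 0.761 ± 0.268 CPM (SD, n = 3), a log2 change of -2.65 (SE 0.281, edgeR adjusted p 2.67e-08). Its span in the gene table overlaps a non-coding RNA and a transfer RNA gene. Hey2, a HEY repressor of the heart ventricle, went from 10.7 ± 1.20 to 4.92 ± 0.755 CPM (SD, n = 3), a log2 change of -1.12 (edgeR adjusted p 6.66e-07). The receptor Notch4 (-0.80, edgeR adjusted p 0.00577) and the Delta-like homologue Dlk2 (-0.81, edgeR adjusted p 6.99e-05) were lower as well. Notch4 had few counts, with 43, 56 and 45 in controls and 32, 19 and 35 after knockdown. Its log2 change lay between -0.98 and -0.57 in the fits that leave out a library. Hes6, which is known to oppose HES1 and to favour differentiation, was higher, from 71.3 ± 5.28 to 83.8 ± 5.42 CPM (SD, n = 3), a log2 change of 0.23 (edgeR adjusted p 0.00282) that was 0.44 with the length offset. Dner, a membrane protein reported as a Notch ligand, had a log2 change of 0.30 (edgeR adjusted p 0.00334) but -0.07 (0.462) with the length offset. In the gene table Dlk2 overlaps the protein-coding gene Abcc10, and Hes6 and Dner overlap non-coding RNA genes. Reads of these neighbours could not be told apart with certainty. Not tested for low counts were Dll3, Dll4, Dlk1, Hes2, Hes3, Hes5 and Helt.

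RBPJ itself and its partners were read from a list of 22 genes, all tested, of which 7 were higher and 12 lower, or 86.4% called against 61.7% of all tested genes, with a median log2 change of -0.16. Rbpj, the DNA-binding subunit, went from 177 ± 5.81 to 126 ± 11.1 CPM (SD, n = 3), a log2 change of -0.50 (edgeR adjusted p 9.09e-08) that was -0.80 with the length offset. The coactivator Maml1 fell by 0.67 on the log2 scale (SE 0.064, edgeR adjusted p 4.69e-09). The corepressor Ncor1 went up from 76.0 ± 3.42 to 130.1 ± 2.03 CPM (SD, n = 3), a log2 change of 0.78 (edgeR adjusted p 2.02e-11). With the length offset this change was 0.52. The histone demethylase Kdm5a, which RBPJ recruits to silent targets, rose by 0.59 (SE 0.0579, edgeR adjusted p 7.37e-09), or by 0.44 with the length offset. In the gene table Ncor1 overlaps the protein-coding gene Pigl, and Maml1 overlaps non-coding RNA genes, with the same limit on telling reads apart.

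Of the 9 proteases and gamma-secretase subunits that cut the receptor, 3 were higher, 3 lower and 3 not called, with a median log2 change of 0.09. The share called, 66.7%, was near the 61.7% of all tested genes. Furin, which cleaves the receptor on its way to the membrane, went from 318 ± 23.6 to 187 ± 5.83 CPM (SD, n = 3), a log2 change of -0.77 (edgeR adjusted p 1.66e-11). Its span overlaps a non-coding RNA gene. Of the gamma-secretase subunits, Psen2 was lower (-0.45, edgeR adjusted p 0.000144) and Ncstn was higher (0.25, edgeR adjusted p 2.31e-05), so that subunits of the same protease moved apart.

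Of the 6 enzymes that put sugars on the receptor, 5 were tested, and 3 were lower and none higher, a share near the 61.7% called over all tested genes. Lfng, the fringe enzyme that changes which ligands a receptor answers to, went from 66.1 ± 2.01 to 34.8 ± 2.36 CPM (SD, n = 3), a log2 change of -0.93 (edgeR adjusted p 3.13e-11). Poglut1 (-0.28) and Eogt (-0.26) were lower. Eogt was not called without control replicate 1 (-0.21, edgeR adjusted p 0.0683) or without control replicate 3 (-0.20, 0.0671). Rfng, another fringe gene, had a log2 change of -0.16 (edgeR adjusted p 0.0698), was called lower without control replicate 3 (-0.20, 0.0347), and was at 0.02 with the length offset.

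Of the 17 genes for ligand endocytosis and receptor turnover, 16 were tested, with 6 higher, 3 lower and a median log2 change of 0.03. The share called, 56.2%, was below the 61.7% of all tested genes. Aak1, a kinase of clathrin-coated vesicles, went from 63.8 ± 4.49 to 111 ± 10.2 CPM (SD, n = 3), a log2 change of 0.80 (edgeR adjusted p 4.39e-10) that was 0.52 with the length offset. Its span overlaps non-coding RNA genes and a pseudogene. Numbl (0.43) and Dtx3 (0.36) were higher, and Epn2, an epsin of ligand endocytosis, was lower (-0.45, edgeR adjusted p 1.02e-06). Over the 5 lists together, 43 of 58 tested genes were called, 18 higher and 25 lower, or 74.1% called against 61.7% of all tested genes, with a median log2 change of -0.07.

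**Figure D4:**
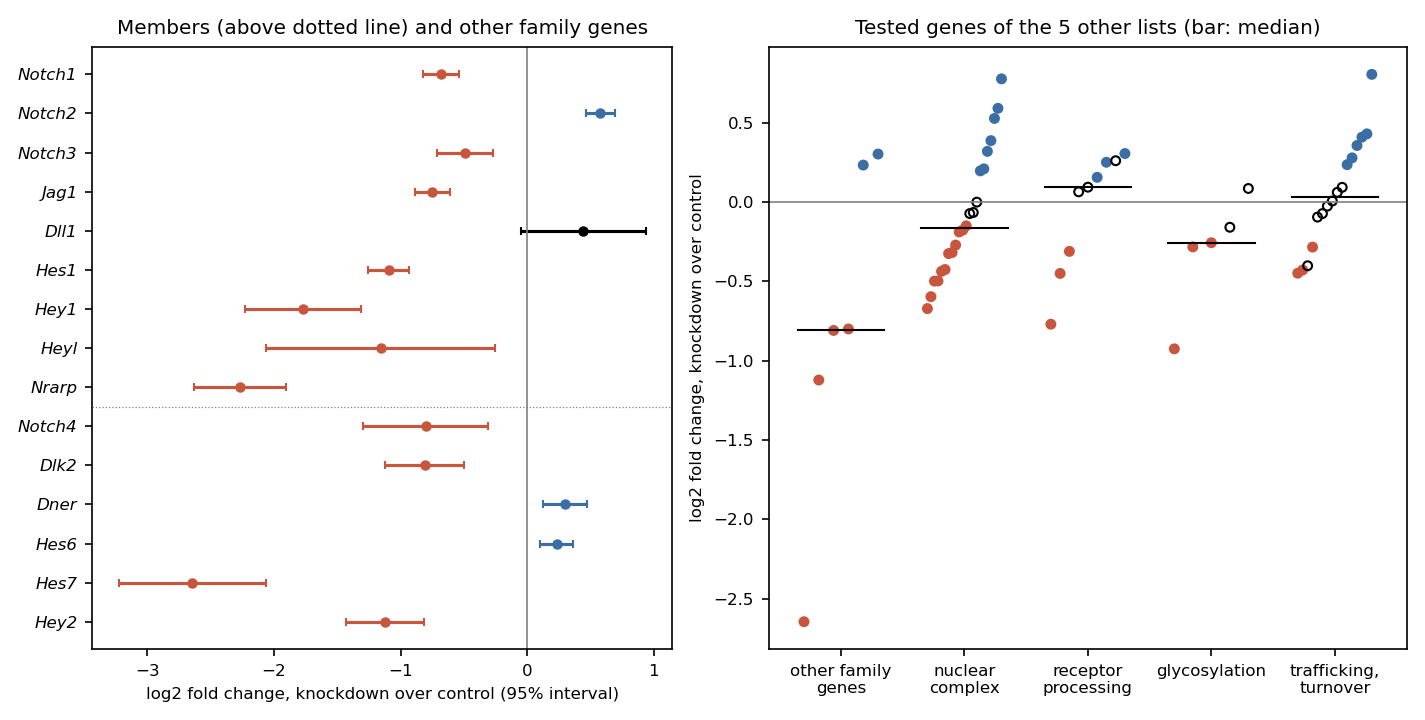
Log2 changes, knockdown over control, for the 9 tested members and 6 other family genes with 95% intervals (left) and for the 58 tested genes of the 5 other lists (right, bars are medians); orange marks genes called lower, blue genes called higher, and black genes not called. Hes7, Nrarp and Hey1 lie furthest to the left, and the nuclear, processing and turnover lists spread to both sides of 0.

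The genes most like Hes1, the called member with the smallest p, were found by the root mean square difference of log2 CPM centred on the control mean over the 6 libraries, among 9076 other genes of at least 10 CPM. They were Fgfbp3 (0.048), Rhpn2 (0.0497) and Hcn2 (0.0578), with log2 changes of -1.13, -1.08 and -1.07 beside -1.09 for Hes1.

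**Figure D5:**
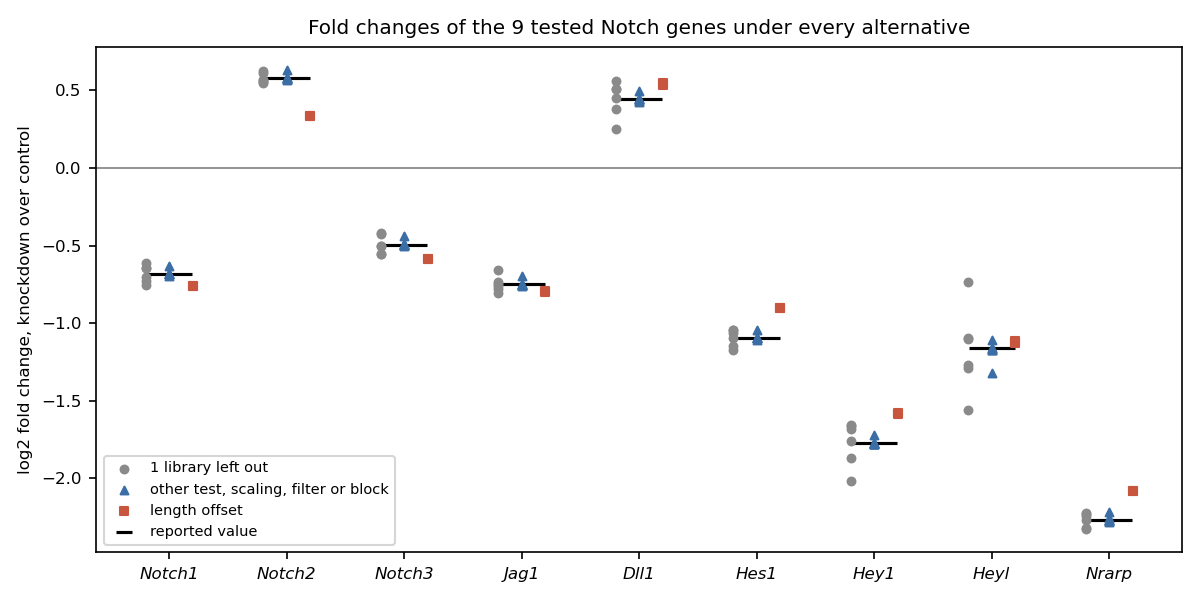
Log2 change of the 9 tested members in the reported fit (bars) and under each alternative: a library left out (grey circles), another test, scaling, filter or the replicate block (blue triangles), and the length offset alone and with the block (orange squares). No member changes sign, Notch2 is nearest to 0 with the length offset, and Heyl spreads widest.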

How the data were processed

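The authors deposited raw whole-number counts per gene for 6 libraries, without scaling or pooling, as the values show. FastQC 0.11.7, fastp 0.14.1 and STAR 2.5 are named per the submitters' processing notes. Counting tool, genome build, annotation, use of strand and treatment of reads that match several genes are not given in the sources used here. Per the labels' protocols, stranded libraries were made from 500 ng of RNA after poly-A selection.

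The test was that of edgeR 4.0.16 in R 4.3.3, a two-sided quasi-likelihood test (prior count 0.125) after TMM scaling and an expression filter (minimum count 10, minimum total 15). It used all 6 libraries and no block. P-values were adjusted over 14216 tested genes by the Benjamini-Hochberg method, and scripts were tested on simulated data. The deviations of same-numbered libraries from their group means correlated at -0.00531, 0.0298 and 0.027, so the numbers were not taken as pairs. Alternatives included DESeq2 1.42.0, limma-voom (limma 3.58.1), other scalings and filters, a replicate block, each library left out, and an offset for genomic span (lowess, span 0.3), which covered the 13084 tested genes with a span in the RefSeq GRCr8 table.

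The members and the gene lists were chosen with earlier results of these data known. Named were all members, all tested genes of the further family list, Rbpj, and from each other list the 4 genes of smallest p. A gene that met this rule is counted but not reported here by name. Placeholder names were not considered as likest genes. Promoters came from RefSeq (GRCr8). Protein sequences were not used here.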

Additional observations from a re-analysis of the deposited data

How the results depend on the processing

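All alternatives were planned. Members called numbered 7 to 9 (7 to 8 in the fits that leave out a library), and other pathway genes called 38 to 44 (39 to 44). Over all genes the number called was between 7353 and 8987. Of 143 combinations of member and alternative, 137 kept direction and call, 5 lost the call, all of Heyl, and 1 gained it. Heyl was at -1.17 in DESeq2's Wald test (adjusted p 0.0912), at -1.16 with the stricter adjusted p of 0.01 (0.0254), and lay between -1.56 and -0.73 in the fits that leave out a library. With a mean of 1 CPM as filter Heyl was not tested. Dll1 passed with the length offset alone, at 0.55 (adjusted p 0.0467). With the replicate block 8 members and 8848 genes were called, and no member changed its call. Of 352 combinations for 22 other named pathway genes, 344 kept direction and call. Reversed were Rfng (0.0188, and 0.0191 with the block) and Dner (-0.0687, and -0.067 with the block) with the length offset. Col5a3, described under other observations, was at -0.0358 and -0.0361 there. Beyond the length trend that the offset removes, the cause was not tested. Depth limits Jag2, Heyl and Dll1, which had 29, 57 and 201 counts over all libraries.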

Other observations

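Notch is reported to act on genes outside the HES and HEY family, depending on the tissue. A list of 13 such genes was drawn up after the results for the members had been seen, with earlier results of these data known. Of these, 11 were tested, and 2 were higher and 8 lower, with a median log2 change of -0.51 against 0.00 over all tested genes, of which 61.7% were called. Sox9, a transcription factor of cartilage and progenitor cells, went from 23.9 ± 3.54 to 7.60 ± 0.367 CPM (SD, n = 3), a log2 change of -1.65 (SE 0.117, edgeR adjusted p 3.54e-11). Myc (-0.87) and the cyclin gene Ccnd1 (-0.82), both drivers of growth, were lower, as were Snai1 (-0.78), Efnb2 (-0.60), Snai2 (-0.51), Tnc (-0.37) and Pdgfrb (-0.17). The collagen gene Col5a1, reported as a Notch target in muscle stem cells, was higher (0.31), but was not called with the length offset (0.05, edgeR adjusted p 0.280). Cdkn1a was higher by a small step (0.11, edgeR adjusted p 0.0216) and was not called without control replicate 1 (0.10, 0.114) or without knockdown replicate 2 (0.10, 0.0606). Col5a3 was not called (0.04). Pax7 and Col6a1 were not tested for low counts. All these genes answer to many other signals as well, and the part of Notch in their levels was not tested.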
